A study of Mus musculus with 6 samples.

Results

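The interleukin-1 (IL-1) family cytokines and receptors described here were 10 mouse genes, taken by symbol from a list of family members, and all 10 were found among the 53700 gene rows of the deposited count table. They are the ligands Il1a, Il1b, Il18, Il33, Il36a and Il36g, the receptor antagonist Il1rn, and the receptors Il1r1, Il1r2 and Il1rl1. RNA of bulk colon tumours was sequenced in 2 groups of 3. The APC-KI mice had recovered after 6 weeks of doxycycline, which represses endogenous Tcf7l2 through the whole body in this genotype. The APC-WT mice were cachectic after 10 days of doxycycline and kept their Tcf7l2 expression. All animals received 100 mg/kg doxycycline in food pellets, so genotype, time on doxycycline and wasting state cannot be told apart. The sources used here do not give age, strain, sex or the construct behind the Tcf7l2 repression. The labels do not say that replicates came from separate animals, so p values measure only the spread between these samples, part of which may be technical.

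IL-1 family ligands are alarm cytokines. IL-1α, IL-1β and the IL-36 cytokines act through receptors that share the IL-1 receptor accessory protein and signal through MYD88 to NF-κB, while IL-33 uses the ST2 receptor encoded by Il1rl1. IL-1β and IL-18 are made as precursors that caspase-1 cleaves in inflammasomes, and the family is held in check by receptor antagonists, decoy receptors and binding proteins. In the colon these cytokines come from epithelial, stromal and myeloid cells and take part in barrier defence, repair and tumour inflammation. In bulk tissue, fewer cells of a type and less RNA per cell cannot be told apart.

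The libraries held between 54895823 and 56825956 counts in APC-KI tumours and between 51777342 and 63921108 counts in APC-WT tumours. Levels are given in CPM, which are counts scaled to a common library size with TMM factors. Tcf7l2, the gene targeted by the repression, stood at 5.57 ± 1.23 CPM in APC-KI tumours, against 41.2 ± 4.84 CPM in APC-WT tumours, and was 7.39-fold lower (SD, n = 3 each; edgeR adjusted p = 0.00124). The epithelial marker Epcam was at 1569 CPM or more in APC-KI tumours and 1261 CPM or more in APC-WT tumours, while the intestinal factor Cdx2 ranged between 5.34 and 56.5 CPM in APC-KI tumours and between 17.3 and 34.0 CPM in APC-WT tumours. APC-WT replicates 1 and 2 held 19164 and 16055 counts of the Y-linked genes Ddx3y, Eif2s3y, Kdm5d and Uty, and the other 4 libraries held 0, so APC-WT replicate 3 came from another animal than these 2. Results are therefore also given over those 4 libraries, called the Y-free libraries below, where APC-WT replicate 3 stands alone and its spread is taken to equal that among APC-KI tumours.

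Il1a and Il1b lie next to each other on chromosome 2. Their promoters are shown because these neighbouring cytokine genes had the same core element and different calls, which do not show that their changes differ. That of Il1r1 is shown because it held the sole NF-κB consensus match among the members. The windows are RefSeq sequence (build GRCm38.p6) covering 250 bases before and 50 bases after a start site, given 5′ to 3′ on the gene's own strand. That of Il1a is chr2:129309923-129310222 and that of Il1b chr2:129371090-129371389, both on the minus strand, and the window shown for Il1r1 is chr1:40266336-40266635 on the plus strand. Capitals mark the TATA motif and the AP-1 motif in Il1a, the TATA motif in Il1b and the NF-κB consensus in Il1r1.
Il1a: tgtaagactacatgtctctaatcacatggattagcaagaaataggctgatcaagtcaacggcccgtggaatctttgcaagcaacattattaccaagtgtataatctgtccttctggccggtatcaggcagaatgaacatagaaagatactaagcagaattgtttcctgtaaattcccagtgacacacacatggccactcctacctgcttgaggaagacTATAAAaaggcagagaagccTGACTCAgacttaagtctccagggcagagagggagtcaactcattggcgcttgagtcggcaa
Il1b: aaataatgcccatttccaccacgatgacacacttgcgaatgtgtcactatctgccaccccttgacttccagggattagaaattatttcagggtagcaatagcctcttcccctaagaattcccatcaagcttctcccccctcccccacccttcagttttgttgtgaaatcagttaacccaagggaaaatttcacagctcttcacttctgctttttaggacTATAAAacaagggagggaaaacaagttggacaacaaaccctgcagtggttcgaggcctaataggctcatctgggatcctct
Il1r1: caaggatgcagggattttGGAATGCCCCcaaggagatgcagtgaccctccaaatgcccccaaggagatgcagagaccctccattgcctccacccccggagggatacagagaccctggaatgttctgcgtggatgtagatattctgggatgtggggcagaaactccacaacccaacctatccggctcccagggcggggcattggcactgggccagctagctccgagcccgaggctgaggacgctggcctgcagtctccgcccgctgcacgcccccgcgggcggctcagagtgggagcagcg

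The TATA motif, TATAAA, began 32 bases before the start site of Il1a and 31 bases before that of Il1b. Il1a also held the AP-1 motif, TGANTCA, which began 12 bases before the start site and overlapped no other match. RefSeq had windows for 9 of the 10 members, 14 windows in all, and every motif was searched on both strands. TATAAA was in 6 of these windows, of 5 members, against 13.6% of all 32851 windows of that length. Besides Il1a and Il1b, it began 29 bases before the start site in an Il33 window. In Il18 and the other Il33 window it began 175 and 203 bases before the start site, and in Il1rn it lay after it. Windows of the same member are not independent promoters. TGANTCA was in 2 windows, of Il1a and Il1rn, against 7.81%. The NF-κB consensus was in 1 window, against 4.51%, and the TCF/LEF motif CTTTGAT was in 0, against 3.73%. These matches describe letters and do not show that a factor binds there.

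Il1a, Il1rn, Il36g and Il1r1 rose in APC-KI tumours, 4 of the 10 members, and 0 fell at an adjusted p under 0.05 in edgeR's quasi-likelihood test. All 10 passed the filter on low counts. DESeq2, limma-voom and an unadjusted p under 0.05 in edgeR each gave 4 higher and 0 lower members. In the same order they called 3369, 2461 and 4048 of all 19127 genes tested higher, and 2388, 1444 and 3186 lower. Over all 19127 genes tested 12.5% were called higher and 7.63% lower, 20.1% together. The groups did not overlap for those same 4 members, beside 44.5% of all genes tested. The median log2 change of the 10 members was 0.65, beside −0.02 over all genes tested. The number of members called higher was 1 without APC-KI replicate 1, 1 without APC-KI replicate 2 and 2 without APC-WT replicate 2. Over all genes the numbers called higher in these fits were 973, 985 and 788, against 2388 with all 6 libraries. With the presence of Y-linked counts as a covariate 0 members were called higher, beside 220 of all 19127 genes tested. Fewer members were also called in the Y-free libraries, as was so over all genes.

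**Figure D1:**
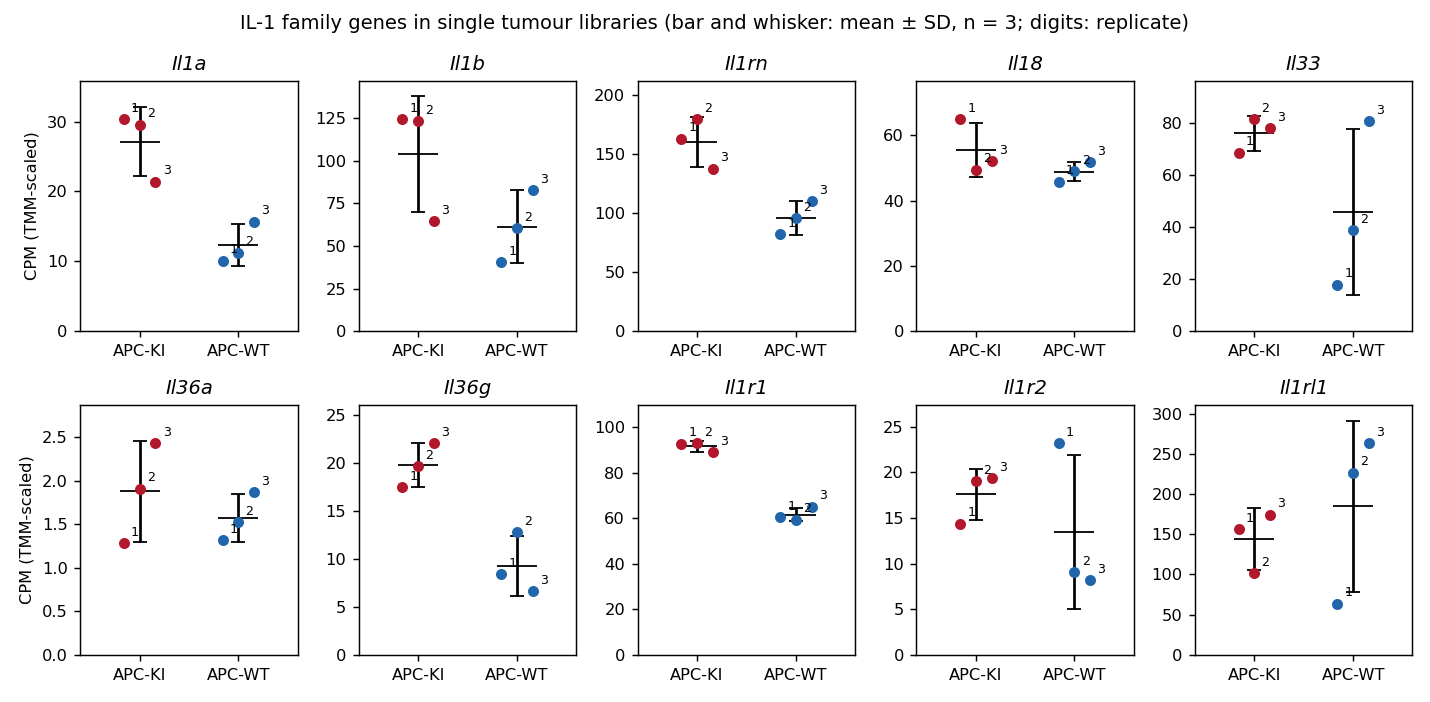
Level of each member in CPM (vertical axes, each starting at 0) in 3 APC-KI and 3 APC-WT libraries. Points are libraries with their replicate number, and the bar with whiskers is the mean ± SD; the APC-KI points lie above all APC-WT points for Il1a, Il1rn, Il36g and Il1r1, and the groups overlap for the other 6 genes.

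Il1a encodes IL-1α, an alarm cytokine that is active even as its precursor. It stood at 30.3, 29.6 and 21.4 CPM in APC-KI replicates 1 to 3, against 10.1, 11.2 and 15.7 CPM in APC-WT replicates 1 to 3. The lowest APC-KI library lay above the highest APC-WT library. Il1a was 2.20-fold higher in APC-KI tumours, with a log2 change of 1.14 ± 0.21 (SE, edgeR adjusted p = 0.0164). The call was lost without APC-KI replicate 1, APC-KI replicate 2 or APC-WT replicate 2 (edgeR adjusted p = 0.0645, 0.0590 and 0.0683). In the Y-free libraries the log2 change was 0.79 (adjusted p = 0.159). Whether reads were counted by strand is not stated, and Gm14023, which shares 222 exon bases with Il1a on the opposite strand, had 195 counts in APC-KI tumours and 259 counts in APC-WT tumours. Il1a itself had 4328 counts in APC-KI tumours and 2151 counts in APC-WT tumours. Likeness between genes was measured over the 6 libraries as the root mean square difference in log2 CPM centred on each gene's mean, among 153 listed genes outside the 10 members. The genes most like Il1a were the lysosomal protease gene Ctss, the Fc receptor gene Fcgr1 and the inflammasome sensor gene Nlrp1b, with differences between 0.13 and 0.17, beside a median of 0.49.

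Il1b encodes IL-1β, the main secreted IL-1 of myeloid cells. It stood at 124, 123 and 64.8 CPM in APC-KI replicates 1 to 3, against 40.4, 60.6 and 83.1 CPM in APC-WT replicates 1 to 3. APC-KI replicate 3 lay below APC-WT replicate 3, so the groups overlapped. The log2 change of 0.76 ± 0.34 did not pass (SE, edgeR adjusted p = 0.149). It was 1.01 without APC-KI replicate 3 and 1.04 without APC-WT replicate 3, and neither passed (adjusted p = 0.0505 and 0.0990). In the Y-free libraries it was 0.32 (adjusted p = 0.709). The listed genes most like Il1b were the inflammasome sensor gene Nlrp3, the growth factor gene Csf2 and the T cell marker Cd8a, with root mean square differences between 0.19 and 0.25, beside a median of 0.53. Il1bos, which shares 25 exon bases with Il1b on the opposite strand, had 330 counts in all 6 libraries, beside 27145 counts of Il1b. Per kilobase of exon, the ratio of Il1a to Il1b was 0.262 ± 0.0493 in APC-KI tumours and 0.201 ± 0.0350 in APC-WT tumours (SD, n = 3 each). The groups overlapped for this ratio (exact two-sided permutation p = 0.3, and 0.5 after adjustment over 5 ratios).

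Il1rn encodes the IL-1 receptor antagonist, which occupies IL-1R1 without signalling. It stood at 163, 179 and 137 CPM in APC-KI replicates 1 to 3, against 82.0, 95.5 and 110 CPM in APC-WT replicates 1 to 3. Every APC-KI library was above every APC-WT library. Il1rn was 1.67-fold higher, with a log2 change of 0.74 ± 0.14 (SE, edgeR adjusted p = 0.0172). The call was lost without APC-KI replicate 1, APC-KI replicate 2 or APC-WT replicate 2 (adjusted p = 0.0636, 0.0577 and 0.0679), and in the Y-free libraries the log2 change was 0.54 (adjusted p = 0.172). Closest in pattern to Il1rn were the brush border gene Vil1, the adaptor gene Myd88 and the endothelial gene Plvap, with root mean square differences between 0.11 and 0.13, beside a median of 0.41. Antagonist and agonist transcripts were also compared within each library, per kilobase of exon. The ratio of Il1rn to Il1a plus Il1b was 0.442 ± 0.0992 in APC-KI tumours and 0.470 ± 0.0888 in APC-WT tumours (SD, n = 3 each), and the groups overlapped (exact two-sided permutation p = 0.7, and 0.875 after adjustment over 5 such ratios). With 3 against 3 this test cannot give a p below 0.1.

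Il36g encodes IL-36γ, an epithelial cytokine, and Il36a encodes IL-36α, both ligands of the receptor encoded by Il1rl2. Il36g stood at 17.5, 19.7 and 22.1 CPM in APC-KI replicates 1 to 3, against 8.40, 12.8 and 6.68 CPM in APC-WT replicates 1 to 3. The groups were apart, and Il36g was 2.13-fold higher in APC-KI tumours (log2 change 1.09 ± 0.25 SE, edgeR adjusted p = 0.0273). It was the sole member called in the Y-free libraries, at a log2 change of 1.56 (adjusted p = 0.0371). Its call was lost without any of the APC-KI replicates 1, 2 or 3 or without APC-WT replicate 1 (adjusted p = 0.0706, 0.0817, 0.0582 and 0.0742). Il36a was the rarest member, at 1.29, 1.91 and 2.44 CPM in APC-KI replicates 1 to 3, against 1.32, 1.53 and 1.87 CPM in APC-WT replicates 1 to 3. The groups of Il36a overlapped throughout, and its log2 change of 0.26 ± 0.30 did not pass (SE, adjusted p = 0.556). Closest to Il36g were Gsdmd, Cd4 and Ccr8, with root mean square differences between 0.24 and 0.26, beside a median of 0.59. Those most like Il36a were Egfl7, Il1rl2 and Prtn3, with differences between 0.17 and 0.24, beside a median of 0.47. The 0.5 added to CPM before log2 flattens rare genes, so the likeness of Prtn3 and Ccr8, which averaged under 1 CPM, is partly set by it. Among listed genes averaging at least 1 CPM, Kdr took the place of Prtn3 and Trac that of Ccr8.

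Il18 encodes IL-18, which epithelial cells hold as a precursor. It stood at 64.9, 49.5 and 51.99 CPM in APC-KI replicates 1 to 3, against 45.8, 49.0 and 51.8 CPM in APC-WT replicates 1 to 3. The groups overlapped, and it did not pass at a log2 change of 0.18 ± 0.12 (SE, edgeR adjusted p = 0.296). The listed genes most like it over the 6 libraries were the epithelial adhesion gene Epcam, the chemokine gene Cxcl1 and the cadherin gene Cdh1, with root mean square differences between 0.089 and 0.099, beside a median of 0.43 over the candidates.

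Il33 encodes IL-33, a nuclear alarm cytokine released by damaged stromal and epithelial cells. It stood at 68.8, 81.7 and 78.3 CPM in APC-KI replicates 1 to 3, against 17.9, 39.1 and 80.8 CPM in APC-WT replicates 1 to 3. The APC-KI libraries lay close together, while APC-WT libraries covered a wide range and APC-WT replicate 3 was at the level of APC-KI tumours. At 0.73 ± 0.49 the log2 change did not pass (SE, edgeR adjusted p = 0.312). Without APC-WT replicate 3 it was 1.42 and passed (adjusted p = 0.0449), and without APC-WT replicate 1 it was 0.35. In the Y-free libraries it was −0.09 (adjusted p = 0.741). The listed genes most like Il33 were all fibroblast markers, Col3a1, Pdpn and Col1a2, with root mean square differences between 0.23 and 0.30, beside a median of 0.72. The summed level of the 8 fibroblast markers was between 2755 and 3833 CPM in APC-KI tumours and at 865, 1351 and 2396 CPM in APC-WT replicates 1 to 3, so it was ordered like Il33 among APC-WT tumours. The part of fibroblast content in the Il33 values was not tested.

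**Figure D2:**
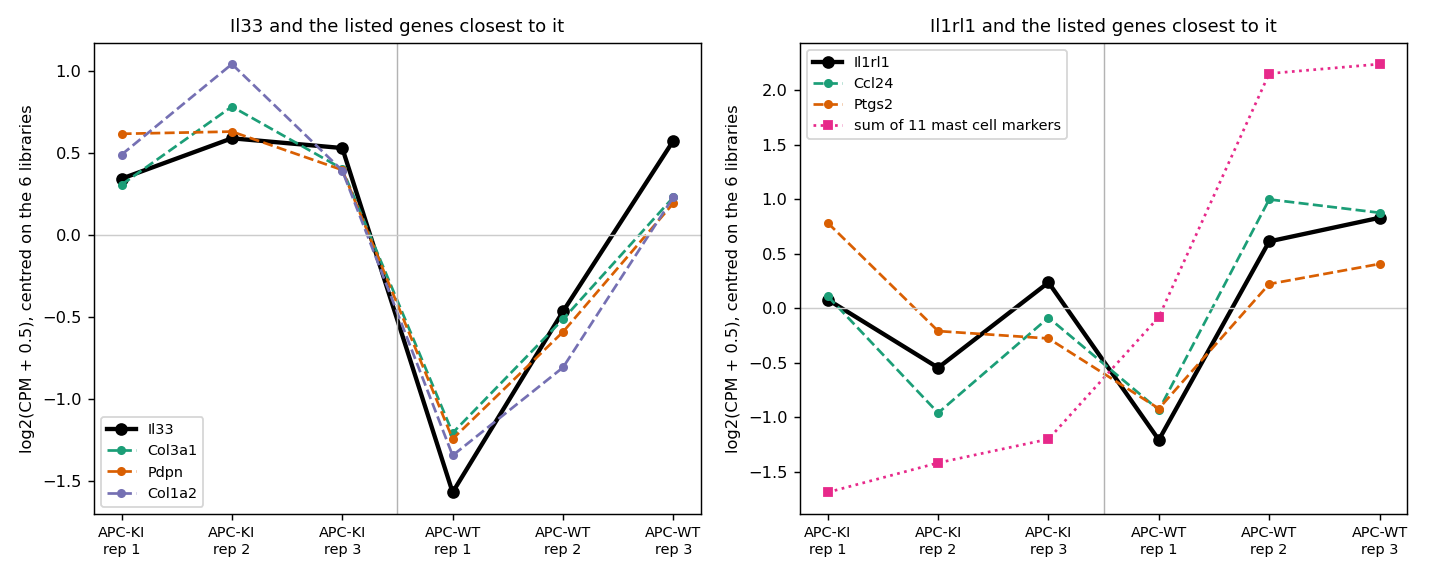
Centred log2(CPM + 0.5) of Il33 (left) and Il1rl1 (right) in each library, APC-KI replicates left of APC-WT replicates, with the 3 listed genes closest to Il33, and with Ccl24, Ptgs2 and the sum of 11 mast cell markers beside Il1rl1 (Trp63, under 1 CPM on average, is not drawn). Il33 and the fibroblast genes are lowest in APC-WT replicate 1, and the mast cell sum is lower in all APC-KI libraries than in all APC-WT libraries while Il1rl1 overlaps between the groups.

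Il1r1 encodes the signalling receptor of IL-1α and IL-1β, and it had the smallest adjusted p of the 10 members. It stood at 92.7, 93.1 and 88.9 CPM in APC-KI replicates 1 to 3, against 60.4, 59.4 and 65.1 CPM in APC-WT replicates 1 to 3. Libraries of each group lay close together and the groups were well apart. Il1r1 was 1.49-fold higher in APC-KI tumours, with a log2 change of 0.57 ± 0.07 (SE, edgeR adjusted p = 0.00572). It was the sole member that passed with each of the 6 libraries left out in turn, with log2 changes between 0.54 and 0.61. In the Y-free libraries it was 0.49 and did not pass (adjusted p = 0.0940), nor did it with the covariate (adjusted p = 0.0609). Closest in pattern to Il1r1 were the epithelial keratin genes Krt8 and Krt19 and the adaptor gene Myd88, with root mean square differences between 0.099 and 0.12, beside a median of 0.36.

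Il1r2 encodes a decoy receptor that binds IL-1 and lacks the signalling domain. It stood at 14.4, 19.1 and 19.3 CPM in APC-KI replicates 1 to 3, against 23.2, 9.04 and 8.15 CPM in APC-WT replicates 1 to 3. APC-WT replicate 1 was the highest of all 6 libraries and the other APC-WT libraries were the lowest, so the groups overlapped. The log2 change of 0.38 ± 0.41 did not pass (SE, edgeR adjusted p = 0.530). Without APC-WT replicate 1 it was 1.03 and passed (adjusted p = 0.0242), while in the Y-free libraries it was 1.11 and did not (adjusted p = 0.0888). Per kilobase of exon, the ratio of Il1r2 to Il1r1 was 0.517, 0.683 and 0.725 in APC-KI replicates 1 to 3, against 1.28, 0.507 and 0.418 in APC-WT replicates 1 to 3. The decoy exceeded the signalling receptor in APC-WT replicate 1 alone (exact two-sided permutation p = 1 between the groups). Among listed genes, those most like Il1r2 were the neutrophil genes Mmp8 and S100a8 and the macrophage receptor gene Mrc1, with root mean square differences between 0.33 and 0.37, beside a median of 0.64.

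Il1rl1 encodes ST2, made as a membrane receptor for IL-33 and as a soluble decoy, which counts per gene do not separate. It stood at 156, 101.3 and 175 CPM in APC-KI replicates 1 to 3, against 63.8, 227 and 264 CPM in APC-WT replicates 1 to 3. APC-KI tumours lay between APC-WT replicate 1, the lowest library, and the other APC-WT libraries. The log2 change of −0.36 ± 0.50 did not pass (SE, edgeR adjusted p = 0.633), and it was −0.77 without APC-WT replicate 1 (adjusted p = 0.0896) and −0.01 without APC-WT replicate 3 (adjusted p = 0.991). Mast cells are a known source of ST2. Of 11 mast cell markers 10 fell and 1, Hdc, rose, beside 7.63% and 12.5% of all genes tested. The sum of the 11 was between 60.8 and 85.5 CPM in APC-KI tumours and between 186 and 933 CPM in APC-WT tumours, with no marker at 0. The protease Mcpt1 stood at 3.03, 6.96 and 2.35 CPM in APC-KI replicates 1 to 3, against 61.9, 443 and 489 CPM in APC-WT replicates 1 to 3. The part of mast cell content in the Il1rl1 values was not tested. The listed genes most like Il1rl1 were the eosinophil chemokine gene Ccl24, the squamous factor gene Trp63 and the prostaglandin synthase gene Ptgs2, with root mean square differences between 0.29 and 0.46, beside a median of 0.82. Trp63 averaged under 1 CPM in each group and is flattened by the added 0.5, and among listed genes averaging at least 1 CPM the endothelial gene Cdh5 took its place, at a difference of 0.54. The ratio of Il33 to Il1rl1 per kilobase was 1.05, 1.93 and 1.07 in APC-KI replicates 1 to 3, against 0.671, 0.412 and 0.732 in APC-WT replicates 1 to 3. The groups did not overlap for this ratio, with an exact two-sided permutation p = 0.1, the smallest that 3 against 3 allows, and 0.5 after adjustment over the 5 ratios.

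**Figure D3:**
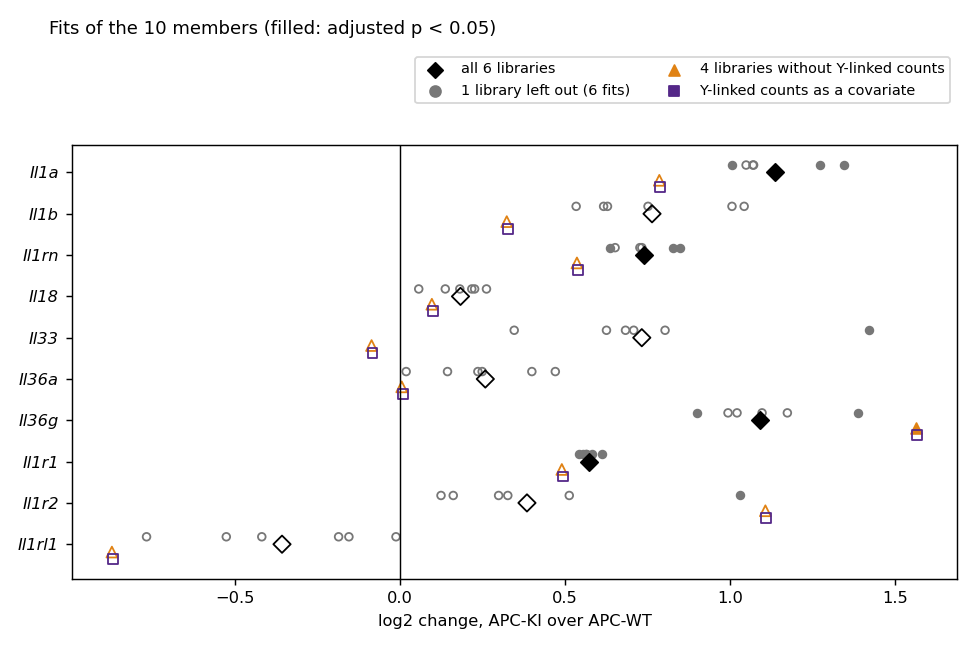
Log2 change (APC-KI over APC-WT, horizontal axis) of each member in the fit of all 6 libraries, in fits without 1 library each, in the Y-free libraries and with those counts as a covariate; filled symbols have an adjusted p under 0.05. Il1r1 stays between 0.49 and 0.61, while Il33 ranges between −0.09 and 1.42.

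Levels of different genes were compared in CPM per kilobase of exon. In APC-KI tumours Il1b (54.6 ± 17.9) and Il18 (53.8 ± 8.03) were the most abundant, and their ranges overlapped. Il1rn (28.9), Il33 (26.4) and Il1rl1 (20.9) followed, each overlapping the next, and then Il1r1 (14.4), Il1a (13.7) and Il36g (12.0), again each overlapping the next. Il1r2 (9.22) and Il36a (2.13) came last, each apart from its neighbours. In APC-WT tumours Il18 (47.4 ± 2.89) was first and apart from Il1b (32.2 ± 11.2). From Il1b through Il1rl1 (26.8), Il1rn (17.3), Il33 (15.9), Il1r1 (9.69), Il1r2 (7.06) and Il1a (6.25) to Il36g (5.63) every neighbour overlapped the next, and Il36a (1.78) was apart from them. Lengths were those of all annotated exons in GENCODE M21, so a gene read mostly from a short isoform is understated on this scale.

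Some of the other family genes lie on the same chromosomes as members, while Il18bp and Sigirr are on chromosome 7 and Il1rap on chromosome 16. On chromosome 1 the order is Il1r2, Il1r1, Il1rl2, Il1rl1, Il18r1 and Il18rap. On chromosome 2 it is Il36b, Il36g, Il36a, Il36rn, Il1f10, Il1rn, Il1a and Il1b. There the lowest base of the RefSeq window is 24186226 for Il36g and 24336610 for the first of Il1rn. It is 129309923 for Il1a and 129371090 for Il1b, so Il1a and Il1b are a separate locus. Over all genes tested 12.5% rose and 7.63% fell. Of the chromosome 1 genes Il1r1 and Il18rap rose and the other 4 did not pass. Of the chromosome 2 genes Il36g, Il1f10, Il1rn and Il1a rose, and Il36b, Il36a and Il1b did not pass. Il36rn, with 5 counts in APC-KI tumours and 10 counts in APC-WT tumours, was too low to be tested.

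Of 3 other ligands and ligand inhibitors tested, 2 rose and 0 fell in edgeR, beside 12.5% and 7.63% of all genes tested. By an unadjusted p, DESeq2 or limma-voom 0 were lower. Il18bp encodes the soluble protein that binds and blocks IL-18. It stood at 17.4, 29.6 and 20.7 CPM in APC-KI replicates 1 to 3, against 14.0, 13.7 and 12.3 CPM in APC-WT replicates 1 to 3, with a log2 change of 0.76 ± 0.20 (SE, edgeR adjusted p = 0.0426). The groups were apart, but the call was lost in limma-voom (adjusted p = 0.0546), without any 1 library other than APC-KI replicate 1 (adjusted p between 0.0625 and 0.115) and in the Y-free libraries (adjusted p = 0.235). Il1f10 encodes IL-38, a family member with antagonist activity. It had 125 counts in APC-KI tumours and 6 counts in APC-WT tumours, all 6 in APC-WT replicate 3, a count ratio of 23.0 with an exact 95% interval of 10.3 to 63.8 for counting error. The ratio was 14.3 without APC-WT replicate 1 and 15.6 without APC-WT replicate 2, and without APC-WT replicate 3 Il1f10 was at least 32.1-fold higher against a floor of 3 counts over the group. Il1f10 passed with all 6 libraries (edgeR adjusted p = 0.0238) and not in the Y-free libraries (adjusted p = 0.103). Its call was also lost without APC-KI replicate 1, APC-KI replicate 2 or APC-WT replicate 2 (adjusted p = 0.0629, 0.0754 and 0.0763).

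Of 5 other receptors and coreceptors tested, 1 rose and 0 fell in edgeR, beside 12.5% and 7.63% of all genes tested. By an unadjusted p, DESeq2 or limma-voom 0 were lower. Il18rap, the accessory chain of the IL-18 receptor, stood at 17.8, 22.7 and 18.3 CPM in APC-KI replicates 1 to 3, against 10.3, 9.23 and 10.7 CPM in APC-WT replicates 1 to 3. The groups were well apart, and Il18rap rose by a log2 change of 0.96 ± 0.14 (SE, edgeR adjusted p = 0.00857, and 0.103 in the Y-free libraries). Il18r1, the ligand-binding chain, was at 6.53 ± 2.94 CPM in APC-KI tumours and 4.20 ± 0.762 CPM in APC-WT tumours and did not pass (SD, n = 3 each; edgeR adjusted p = 0.220). The shared accessory chain Il1rap was at 16.3 ± 0.321 CPM in APC-KI tumours and 19.5 ± 6.90 CPM in APC-WT tumours, where APC-WT replicate 3 alone reached 27.5 CPM (SD, n = 3 each; edgeR adjusted p = 0.457). The IL-36 receptor gene Il1rl2 was at 13.2 ± 2.48 CPM in APC-KI tumours and 10.1 ± 3.56 CPM in APC-WT tumours (edgeR adjusted p = 0.336).

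**Figure D4:**
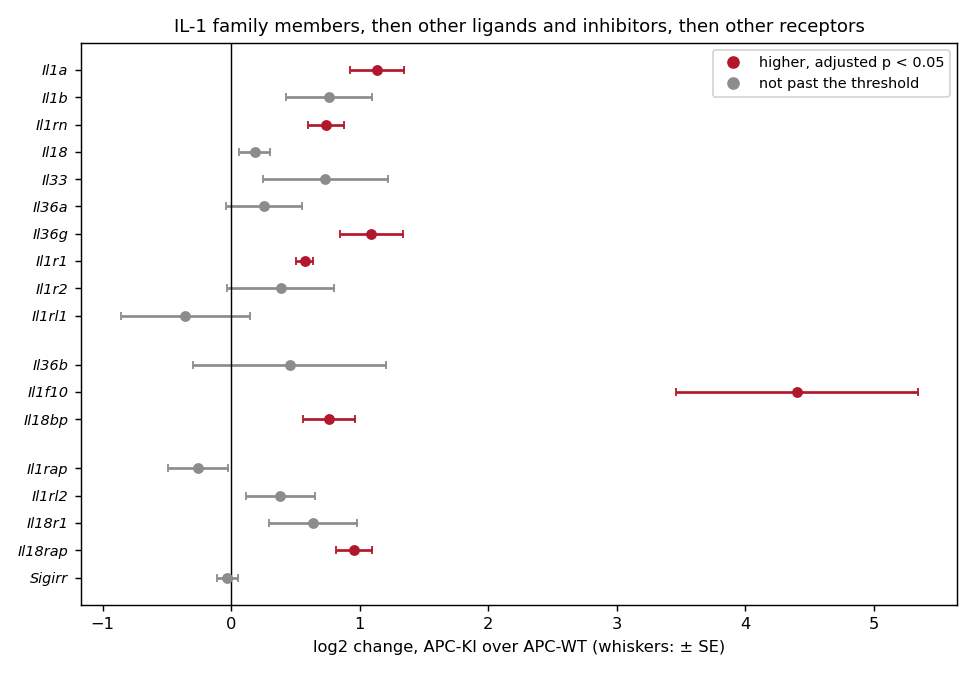
Log2 change ± SE (horizontal axis, APC-KI over APC-WT) of the 10 members, then other ligands and inhibitors, then other receptors, by edgeR over all 6 libraries. Red points have an adjusted p under 0.05 and grey points do not; Il1f10, with 6 counts in APC-WT tumours, is farthest from 0.

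Many inflammasome genes rose. Il1b and Il18, whose precursors they process, did not pass, at log2 changes of 0.76 ± 0.34 and 0.18 ± 0.12 (SE). Whether these changes differ from those of the inflammasome genes was not tested. Of 15 tested genes of cytokine processing and release 9 rose and 1 fell, beside 12.5% and 7.63% of all genes tested. The median log2 change of the 15 was 0.91. Casp1, the protease that cleaves the IL-1β and IL-18 precursors, was at 122 ± 16.5 CPM in APC-KI tumours and 71.0 ± 6.71 CPM in APC-WT tumours (SD, n = 3 each; log2 change 0.78, edgeR adjusted p = 0.0101). The adaptor Pycard, which joins sensors to caspase-1, was 3.03-fold higher, at 84.1 ± 21.2 CPM in APC-KI tumours and 27.8 ± 5.97 CPM in APC-WT tumours. The pore-forming protein gene Gsdmd was 1.88-fold and the lipopolysaccharide-sensing caspase gene Casp4 1.56-fold higher.

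Among the sensors, Naip2 and Naip5, which in mice detect bacterial secretion system parts and flagellin, were 2.497-fold and 1.95-fold higher. Naip2 stood at 166, 143 and 170 CPM in APC-KI replicates 1 to 3, against 55.5, 66.6 and 69.6 CPM in APC-WT replicates 1 to 3 (edgeR adjusted p = 0.0034). Naip2 and Naip5 passed under every alternative run, and with Gsdmd they were the 3 pathway genes called higher in the Y-free libraries. Naip genes are close copies of each other, so the division of reads among them is uncertain. The epithelial sensor Nlrp6 rose 4.20-fold and Nlrp1b 2.03-fold. Nlrp6 lost its call without APC-KI replicate 1 or APC-WT replicate 2 (adjusted p = 0.0526 and 0.0536) and with no filter on low counts (adjusted p = 0.0520). It was also lost with the replicate number as a block (adjusted p = 0.0549). Nlrp1b lost its call without APC-KI replicate 1, APC-KI replicate 2 or APC-WT replicate 2 (adjusted p = 0.0535, 0.0579 and 0.0630). Nlrp3, the sensor best known for IL-1β release by myeloid cells, was at 12.7 ± 4.20 CPM in APC-KI tumours and 7.52 ± 1.44 CPM in APC-WT tumours and did not pass (edgeR adjusted p = 0.0978). The inflammasome genes Nlrc4 and Aim2 did not pass either, at log2 changes of 0.40 and −0.04 (edgeR adjusted p = 0.0667 and 0.676). The lysosomal protease gene Ctss was 2.15-fold higher. In the Y-free libraries Casp1, Casp4, Pycard, Ctss, Nlrp6 and Nlrp1b did not pass (adjusted p between 0.0531 and 0.192). The gene that fell was Cma1, a mast cell chymase that can cleave IL-1 family precursors, at 2.36 ± 0.831 CPM in APC-KI tumours and 16.5 ± 8.44 CPM in APC-WT tumours, and the mast cell markers given above fell with it. Its call was lost without APC-KI replicate 1 (adjusted p = 0.0581).

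Of 19 receptor signalling genes tested 2 rose and 2 fell, beside 12.5% and 7.63% of all genes tested. The median log2 change of the 19 was −0.10. DESeq2 called 2 higher and 4 lower, beside 3369 and 2388 of all 19127 genes tested. In limma-voom 2 were higher and 1 was lower, beside 2461 and 1444 of all genes. The adaptor Myd88 stood at 58.9, 63.7 and 52.2 CPM in APC-KI replicates 1 to 3, against 34.0, 38.8 and 35.5 CPM in APC-WT replicates 1 to 3 (log2 change 0.69 ± 0.10 SE, edgeR adjusted p = 0.00857). The kinase gene Irak4 rose by 0.49 and its partner Irak1 fell by 0.22 on the log2 scale, and the NF-κB subunit gene Relb fell by 0.38. All 4 calls were lost in the Y-free libraries (adjusted p = 0.0902 for Myd88, 0.317 for Irak4, 0.327 for Irak1 and 0.213 for Relb). Relb was also lost without APC-KI replicate 1 or APC-WT replicate 2 (adjusted p = 0.0620 and 0.0702). Irak4 was lost without APC-KI replicate 1 or 2 or APC-WT replicate 1 or 2 (adjusted p between 0.0926 and 0.139), and Irak1 without any 1 of the 6 libraries (adjusted p between 0.0513 and 0.149). With all 6 libraries Irak1 was lost in limma-voom (adjusted p = 0.0518). In edgeR it was lost with RLE factors, no filter or the replicate number as a block (adjusted p = 0.0509, 0.0930 and 0.131). That block also lost Irak4 and Relb (adjusted p = 0.111 and 0.0570), and library totals lost Irak4 (adjusted p = 0.0643).

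Of 22 genes that IL-1 signalling can induce, 6 rose and 0 fell in edgeR, beside 12.5% and 7.63% of all genes tested. By an unadjusted p, DESeq2 or limma-voom 0 were lower, and the median log2 change was 0.36. Nfkbiz, Tnfaip3 and Zc3h12a, which encode regulators of the NF-κB response, were 1.79-fold, 1.53-fold and 1.53-fold higher. These calls were lost in the Y-free libraries (adjusted p = 0.0544, 0.0789 and 0.0696), and that of Tnfaip3 was also lost without APC-KI replicate 1, APC-KI replicate 2 or APC-WT replicate 2 (adjusted p = 0.0880, 0.0848 and 0.0899). The monocyte chemokine gene Ccl2 was 2.59-fold, the stromal protease gene Mmp3 3.70-fold and the cytokine gene Lif 1.30-fold higher. The groups did not overlap for these 3 genes, but none of the calls held in every fit with a library left out. Lif was lost without any 1 of the 6 (adjusted p between 0.0683 and 0.120), and Ccl2 and Mmp3 were lost without APC-KI replicate 1 or 2 or APC-WT replicate 1 or 2 (adjusted p between 0.0879 and 0.121 for Ccl2 and between 0.0744 and 0.130 for Mmp3). Cxcl1, Cxcl2, Il6, Ptgs2, Lcn2 and Tnf did not pass, with log2 changes of 0.26, −0.03, 1.38, 0.18, 0.0042 and 0.09. Of 7 tested genes linked to IL-33 responses, Ccr8, a chemokine receptor of type 2 and regulatory T cells, rose 3.60-fold, to 1.23 ± 0.227 CPM in APC-KI tumours, against 0.339 ± 0.0269 CPM in APC-WT tumours (SD, n = 3 each; edgeR adjusted p = 0.00826, and 0.0967 in the Y-free libraries). The other 6 did not pass, so 1 rose and 0 fell, beside 12.5% and 7.63% of all genes tested. The median log2 change of the 7 was 0.66. In DESeq2 and by an unadjusted p in edgeR 4 of the 7 were higher, beside 3369 and 4048 of all 19127 genes tested. In limma-voom 1 was, beside 2461 of all genes. By each of these 0 of the 7 were lower. Of all genes 2388 were lower in DESeq2, 3186 by an unadjusted p in edgeR and 1444 in limma-voom.

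**Figure D5:**
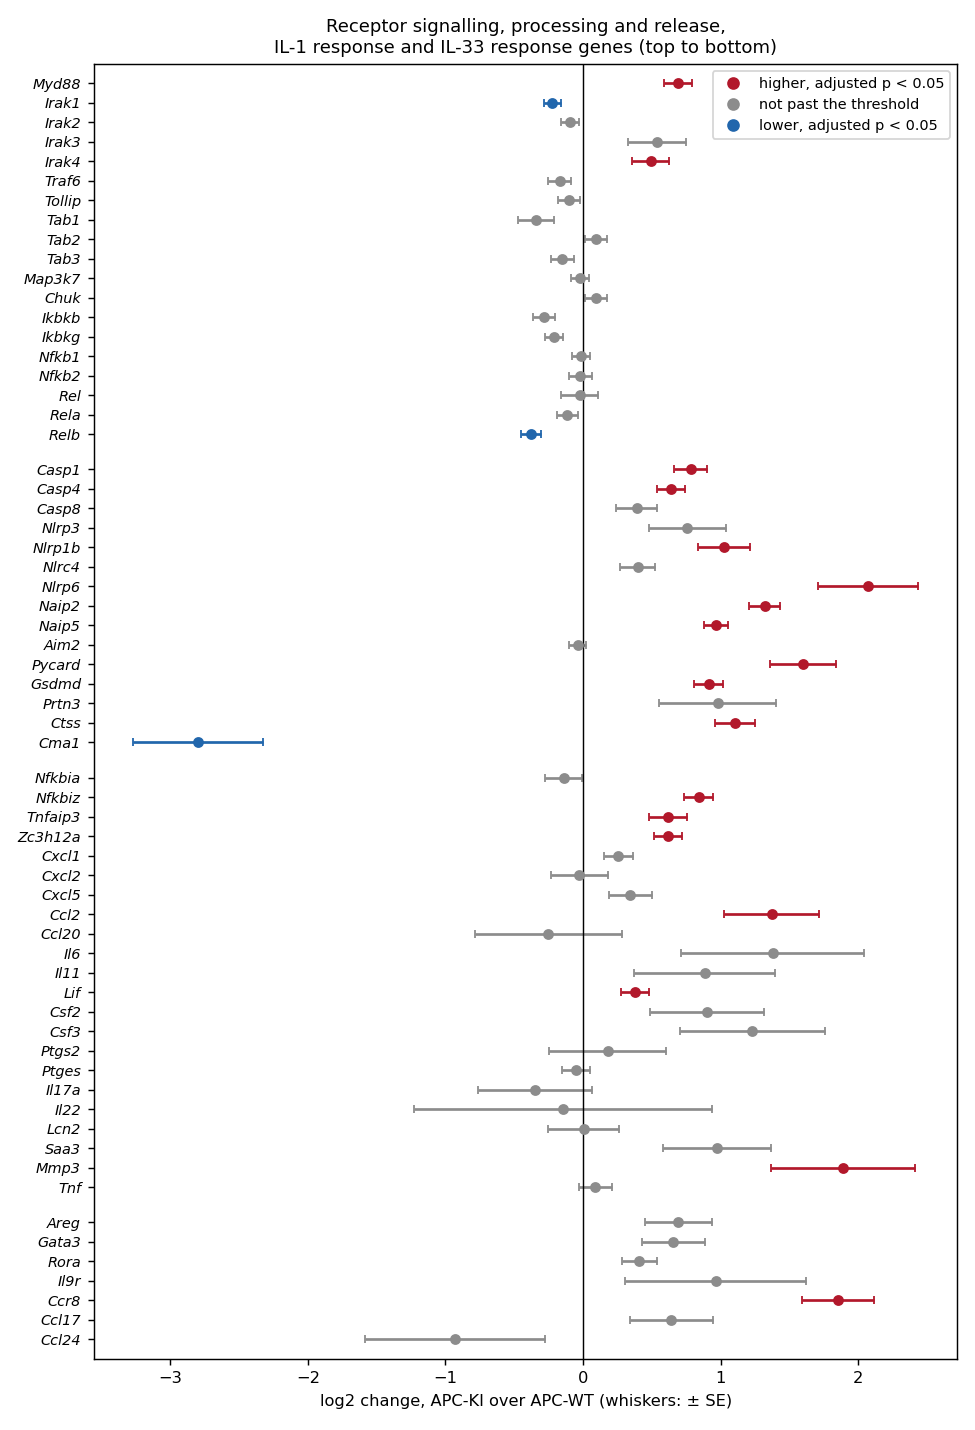
Log2 change ± SE (horizontal axis, APC-KI over APC-WT) of genes of receptor signalling, processing and release, IL-1 response and IL-33 response, by edgeR over all 6 libraries. Red points were higher and blue points lower at an adjusted p under 0.05; 9 of 15 processing genes are red and 1, Cma1, is blue.

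Across all 71 other pathway genes tested 21 rose and 3 fell, beside 12.5% and 7.63% of all genes tested. In the Y-free libraries fewer of them were called, as was so over all genes. Summed markers of some cell types that make or sense IL-1 were apart between the groups, and those of others overlapped. The summed level of 10 neutrophil markers, 4 of which rose, was between 629 and 835 CPM in APC-KI tumours and between 442 and 516 CPM in APC-WT tumours. The sum of 12 macrophage and monocyte markers, 4 of which rose, was between 957 and 1546 CPM in APC-KI tumours and between 710 and 1194 CPM in APC-WT tumours, with overlap. The sum of 8 epithelial markers, 4 of which rose, was between 9536 and 11416 CPM in APC-KI tumours and between 7515 and 8714 CPM in APC-WT tumours. The sum of 10 T cell and innate lymphoid markers, 7 of which rose, was between 87.9 and 131 CPM in APC-KI tumours and between 50.1 and 57.4 CPM in APC-WT tumours. The sum of 8 endothelial markers, 3 of which rose, was between 289 and 369 CPM in APC-KI tumours and between 199 and 268 CPM in APC-WT tumours. All 8 smooth muscle markers rose, and their sum was between 1000.1 and 1619 CPM in APC-KI tumours and between 188 and 471 CPM in APC-WT tumours. Of 7 squamous epithelial markers tested 0 rose and 1 fell in edgeR, with 0 higher by an unadjusted p, DESeq2 or limma-voom. No marker of these lists was at 0 in a group. The part of these cell types in the changes of Il1a, Il1rn, Il36g, Il1r1 and the inflammasome genes was not tested.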

How the data were processed

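RNA of 6 bulk mouse colon tumours was measured. Per the labels' protocols, tumours were pinched from the muscle beneath, and libraries were made with a stranded mRNA kit. The authors deposited 1 table of raw counts, whole numbers by Ensembl gene and library, whose columns are alignment files per the file headers. The submitters' processing notes name the builds GRCm38 and mm10 and the tools STAR, cutadapt 2.5, DESeq2 1.37.6 and Trim Galore 0.6.4. Which counter, strand option and annotation were used is not given in the sources used here.

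Symbols and exon lengths came from GENCODE M21, which named 52093 of 53700 identifiers. Versions of just 35 identifiers matched M21, so gene coordinates are not printed, and RefSeq windows keep their own build. Il36a and Il36g were matched through their older symbols. Groups were taken from the sample titles.

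After filterByExpr and TMM scaling, counts were tested with edgeR 4.0.16 in R 4.3.3 (robust glmQLFit and glmQLFTest, group as the sole term). Benjamini-Hochberg adjustment covered all 19127 genes, with a threshold of 0.05. Changes are APC-KI relative to APC-WT, and the SE is the log2 change divided by the square root of the F statistic. The steps were tested on simulated data, in which the share of unchanged genes among the calls was somewhat above the threshold. Alternatives were DESeq2 1.42.0, limma-voom (limma 3.58.1), RLE factors, library totals only, no filter, CPM above 1 in at least 3 libraries, the replicate number as a block, each library left out, the 4 libraries without Y-linked counts, and those counts as a covariate. No replicate pair agreed within sampling noise, as the chi-square per gene lay between 40.1 and 114.5. Count intervals are exact binomial and cover counting error only.

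Members and gene lists were chosen with earlier results of these data known. The text names all 10 members, every gene of the other pathway lists past the threshold, and Il1rap, Il18r1, Il1rl2, Il18bp, Myd88, Casp1 and Nlrp3 whatever their result. It also names, for each member, the 3 listed genes with the smallest root mean square difference in log2(CPM + 0.5). Genes named with values that did not pass, beyond these, were chosen after their values were seen.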

Additional observations from a re-analysis of the deposited data

How the results depend on the processing

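All 10 members kept their direction under DESeq2, limma-voom, RLE factors, library totals, both other filters, the replicate block and each library left out. Il33 reversed to −0.087 in the 4 Y-free libraries and to −0.084 with Y-linked counts as a covariate. Il1rl2 reversed to −0.11 under both of these, and Il1rap, at −0.26 in all 6 libraries, ranged between −0.41 and 0.072 with a library left out and was above 0 without APC-WT replicate 3 alone. The cause was not tested. Members called higher numbered 4 in the reported fit, between 1 and 5 with a library left out, 1 with the replicate block, 1 in the Y-free libraries and 0 with the covariate. Other pathway genes called higher numbered 21, between 12 and 23 with a library left out, 3 in the Y-free libraries and 5 with the covariate. Those called lower numbered 3, between 0 and 3 with a library left out, 5 in DESeq2, 6 with library totals, 1 with the block, 1 in the Y-free libraries and 0 with the covariate.

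Of all genes, 2388 were higher and 1459 lower. With a library left out the numbers were between 788 and 2542 higher and between 300 and 1595 lower. They were 1195 and 465 with the block, 178 and 152 in the Y-free libraries, and 220 and 195 with the covariate. DESeq2 called 2388 lower. Library totals called 1978 higher and 2844 lower, so that 41% of calls were higher against 62.1%, and moved the median of all genes by −0.12. Replicate numbers did not pair the samples (correlations of deviations 0.035, −0.068 and −0.182 for equal numbers), so the block serves as an alternative alone. It left Il1r1 called (adjusted p = 0.0319) and Il1a, Il1rn and Il36g not (0.0651, 0.0573 and 0.0592). Restricting the candidates for likeness to the 146 listed genes that average at least 1 CPM, an alternative chosen after seeing the data, replaced Prtn3 for Il36a, Ccr8 for Il36g and Trp63 for Il1rl1 and no other named gene.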

Other observations

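Cytokines of type 2 immunity, which can be induced through ST2, were rare in all tumours and too low to be tested. Il9, a mast cell growth cytokine, had 0 counts in the APC-KI tumours and 55 counts in the APC-WT tumours, which is at least 16.6-fold lower in APC-KI tumours against a floor of 3 counts over the group. Of those 55 counts 39 were in APC-WT replicate 3, and without that library the bound was 6.93-fold. Without any 1 APC-KI library it was 10.8-fold or more. Il13 had 2 counts in APC-KI tumours and 33 counts in APC-WT tumours, a ratio of 0.0668 with an exact 95% interval of 0.00777 to 0.261 for counting error. With 1 library left out the ratio lay between 0.0443 and 0.103, except that without APC-KI replicate 1 no count was left in APC-KI tumours. Il4 had 8 and Il5 had 2 counts in APC-KI tumours, against 6 and 4 counts in APC-WT tumours.

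Ccl24, whose pattern was closest to that of Il1rl1, stood at 2.48, 0.918 and 2.10 CPM in APC-KI replicates 1 to 3, against 0.945, 5.01 and 4.56 CPM in APC-WT replicates 1 to 3. The squamous keratin gene Krt14 stood at 23.5, 11.6 and 45.4 CPM in APC-KI replicates 1 to 3, against 4.66, 36.2 and 61.7 CPM in APC-WT replicates 1 to 3. As with Il1rl1, APC-WT replicate 1 was lowest and APC-WT replicate 3 highest. Krt14 was chosen after its values were seen.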
